A study of Rattus norvegicus with 18 samples.

Results

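The genes described here encode interstitial collagens and fibronectin, the fibrous proteins that fill the space between kidney tubules. They were taken from the deposited count table by a fixed list of 10 identifiers, whose gene names came with that list, and make up 10 of the 55335 identifiers in the table. All 10 were among the 19233 genes that passed the filter on low counts. They cover collagens of type I (Col1a1, ENSMUSG00000001506; Col1a2, ENSMUSG00000029661), type III (Col3a1, ENSMUSG00000026043), type V (Col5a1, ENSMUSG00000026837; Col5a2, ENSMUSG00000026042), type VI (Col6a1, ENSMUSG00000001119; Col6a2, ENSMUSG00000020241; Col6a3, ENSMUSG00000048126), type XV (Col15a1, ENSMUSG00000028339) and fibronectin (Fn1, ENSMUSG00000026193).

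Kidney RNA was sequenced in 18 libraries, 6 in each of 3 groups, with 6 animals per group according to the series description. The control group (Ctrl) had ordinary feed and solvent by gavage. The model group (DN, for diabetic nephropathy) had a high-fat diet and an injection of STZ, the abbreviation under which the streptozotocin model of insulin deficiency is usually given. The treated group (Treat) consisted of model animals dosed by mouth with TSK, a preparation known here only by its abbreviation, at 500 mg/kg per day for 4 weeks. The sources used here state no strain, sex or age. The animals are labelled as rats, while the identifiers are those of mouse genes, and the effect of this on the counts was not tested. Gene lengths were not used, so the level of one gene is not compared with that of another.

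Interstitial matrix is made mainly by fibroblasts and pericytes. Fibrillar collagens of types I and III form the main fibres, type V collagen is built into them and sets their diameter, type VI collagen forms a beaded microfibril network around cells, type XV collagen links basement membranes to the interstitium, and fibronectin is the adhesive scaffold on which collagen is laid down. A rise of these messages is the usual transcript sign of kidney fibrosis, in which TGF-beta signalling turns fibroblasts into matrix-producing myofibroblasts.

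RefSeq promoter windows of the rat (build GRCr8), 250 bases before to 50 bases after the annotated start, were matched by symbol for 6 of the 10 genes. Stretches are shown for Col1a2 and Col6a1, which varied together over the libraries, and for Col5a2, which did not vary with the other genes. Capitals mark the motifs searched for on both strands: CCAAT (the NF-Y box), TATAAA (the TATA box), CCCTCCC (a C-rich element) and CAGACA (a form of the Smad-binding CAGA box). Positions count back from the base before the annotated start, which is -1. At Col1a2 the annotated start falls on the bases ATG, so the stretch lies upstream of that triplet. The stretches are chr4:33518317-33518406 on the + strand for Col1a2, chr20:11905570-11905689 on the + strand for Col6a1 and chr9:55090152-55090301 on the - strand for Col5a2, each written 5′ to 3′ along the gene.
Col1a2: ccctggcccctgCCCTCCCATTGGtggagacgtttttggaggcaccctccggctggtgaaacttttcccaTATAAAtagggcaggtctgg
Col6a1: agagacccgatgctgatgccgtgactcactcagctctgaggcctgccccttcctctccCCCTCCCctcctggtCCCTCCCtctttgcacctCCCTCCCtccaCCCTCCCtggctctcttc
Col5a2: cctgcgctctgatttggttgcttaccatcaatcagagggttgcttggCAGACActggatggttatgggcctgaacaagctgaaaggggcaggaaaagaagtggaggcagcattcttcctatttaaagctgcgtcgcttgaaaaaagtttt

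The Col1a2 stretch held CCCTCCC at -228, CCAAT on the reverse strand at -221 and TATAAA at -170. The first pair adjoin without overlapping, and TATAAA lies apart from them. The Col6a1 stretch held CCCTCCC at -62, -47, -29 and -18, and the Col5a2 stretch held CAGACA at -103. Of 33469 rat promoter windows of 300 bases, 37.5% held CCAAT, 14.2% TATAAA, 20.8% CCCTCCC and 21.1% CAGACA. Among the 6 matched windows, CCAAT and TATAAA were found in 1 each, CCCTCCC in 3 and CAGACA in 2. These matches describe letters in the windows, and binding of any factor was not measured.

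All 10 genes were lower in the DN kidneys than in the control kidneys, and none was called between treated and untreated DN kidneys. Values are counts per 1000000 counts of a library (CPM), scaled by TMM factors, which correct library totals for differences in composition. Genes were called at a Benjamini-Hochberg adjusted p under 0.05 over all 19233 genes (edgeR quasi-likelihood test on all 18 libraries). In this comparison 15.3% of all tested genes were called lower. The median log2 fold change of the 10 genes in DN was -1.47, while that of all tested genes was 0.01. For 6 of the 10 genes every DN library lay below every control library, which held in the lower direction for 7.89% of all tested genes. In tissue RNA, fewer matrix-producing cells and less message per cell cannot be told apart. All controls except library 4 also differed from every DN and treated library in the counts of an unnamed identifier, described below. For those controls this division and the condition cannot be told apart, which limits every comparison with Ctrl.

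**Figure D1:**
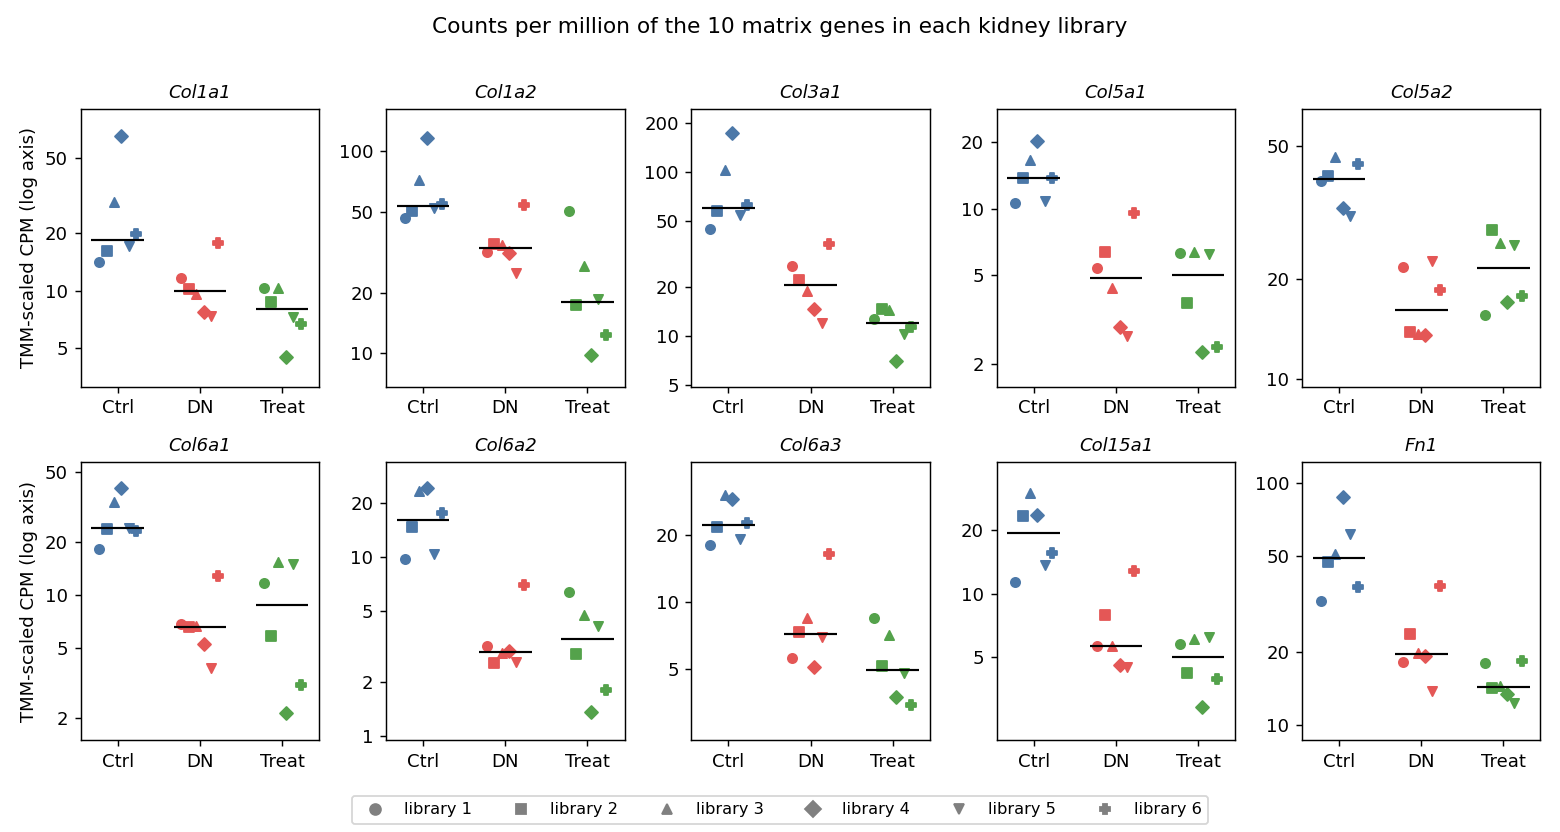
Each panel plots 1 gene, with TMM-scaled CPM on a log axis against the 3 groups; points are single libraries (the marker shape gives the library number within its group) and bars are group medians. The DN and treated libraries lie below the control median for all 10 genes except DN library 6 for Col1a2, and control library 4 is the highest control for 7 genes.

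The type III collagen gene Col3a1, whose product accompanies type I in compliant fibres, ranged from 44.9 to 174 CPM in the controls, with a median of 60.4. In DN it ranged from 12.05 to 36.2 CPM (median 20.5), and in the treated animals from 7.03 to 14.6 CPM (median 12.1). No DN or treated library reached the lowest control, while the DN and treated ranges overlapped. The log2 fold change of Col3a1 in DN was -1.93 (SE 0.32, adjusted p = 0.000202), a 3.80-fold lower level. Among all tested genes, 0.941% had a lower fold change.

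Both type I collagen genes were also called lower. Col1a1, the chain present in 2 copies per type I molecule, stood at 14.2 to 64.7 CPM in Ctrl (median 18.4), at 7.36 to 17.8 CPM in DN (median 9.91) and at 4.46 to 10.3 CPM in Treat (median 7.98). DN library 6 reached into the control range, while all treated libraries lay below it. The log2 fold change of Col1a1 in DN was -1.32 (SE 0.34, adjusted p = 0.00617), and it was -0.84 (adjusted p = 0.0141) without control library 4, which held the highest value. Col1a2, the partner chain, stood at 46.8 to 116 CPM in Ctrl (median 53.7), at 24.9 to 54.1 CPM in DN (median 33.2) and at 9.78 to 50.5 CPM in Treat (median 18.01). Its log2 fold change in DN was -0.90 (SE 0.33, adjusted p = 0.0432), the smallest of the 10 genes. This call was lost when any of 9 single libraries was left out (control 3, 4 or 6, DN 1, 2, 3, 4 or 5, treated 3), with adjusted p of up to 0.121, and with the replicate number as a block (adjusted p = 0.0734).

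Both type V chains fell in DN. Col5a1 went from 10.6 to 20.2 CPM in Ctrl (median 13.8) to 2.68 to 9.53 CPM in DN (median 4.88), with 2.25 to 6.37 CPM in Treat (median 5.01). Its log2 fold change in DN was -1.46 (SE 0.32, adjusted p = 0.00207). Col5a2 stood at 30.7 to 46.2 CPM in Ctrl (median 39.9), 13.6 to 22.6 CPM in DN (median 16.1) and 15.5 to 28.0 CPM in Treat (median 21.5). Its log2 fold change in DN was -1.17 with the smallest standard error of the 10 genes (0.17, adjusted p = 6.3e-05). For both chains, no DN or treated library reached the lowest control.

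The 3 type VI chains, which assemble into 1 monomer before secretion, all fell in DN without overlap between the groups. Col6a1 stood at 18.1 to 40.4 CPM in Ctrl (median 23.8) and 3.86 to 12.8 CPM in DN (median 6.61), a log2 fold change of -1.95 (SE 0.41, adjusted p = 0.00146). Col6a2 had the largest estimated fall of the 10 genes, from 9.74 to 24.1 CPM in Ctrl (median 16.1) to 2.54 to 6.96 CPM in DN (median 2.95). Its log2 fold change was -2.23 (SE 0.36, adjusted p = 0.000156), a 4.69-fold lower level. Col6a3, the longest chain, went from 18.03 to 30.2 CPM (median 22.2) to 5.12 to 16.4 CPM in DN (median 7.18), a log2 fold change of -1.49 (SE 0.27, adjusted p = 0.000414). DN library 6 was the highest DN library for all 3 chains.

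Col15a1, a collagen with non-collagenous end domains at the basement membrane border, stood at 11.3 to 30.1 CPM in Ctrl (median 19.4) and 4.49 to 12.8 CPM in DN (median 5.64). The log2 fold change was -1.51 (SE 0.28, adjusted p = 0.000611), with DN library 6 inside the control range. Fn1 stood at 32.7 to 87.1 CPM in Ctrl (median 48.9) and 13.8 to 37.7 CPM in DN (median 19.6). Fibronectin message had a log2 fold change of -1.25 (SE 0.23, adjusted p = 0.000575), again with DN library 6 inside the control range. Control library 5, the second highest for Fn1 at 61.5 CPM, also held 5999.8 CPM of the unnamed identifier ENSMUSG00000029368, which stood at 16.2 to 70.4 CPM in the other controls. Leaving that library out gave Fn1 a log2 fold change of -1.20 (adjusted p = 0.00163). Without control library 4, the highest for Fn1, it was -1.05 (adjusted p = 0.00112). With control libraries 4 and 5 both left out it was -0.92 (adjusted p = 0.00439).

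**Figure D2:**
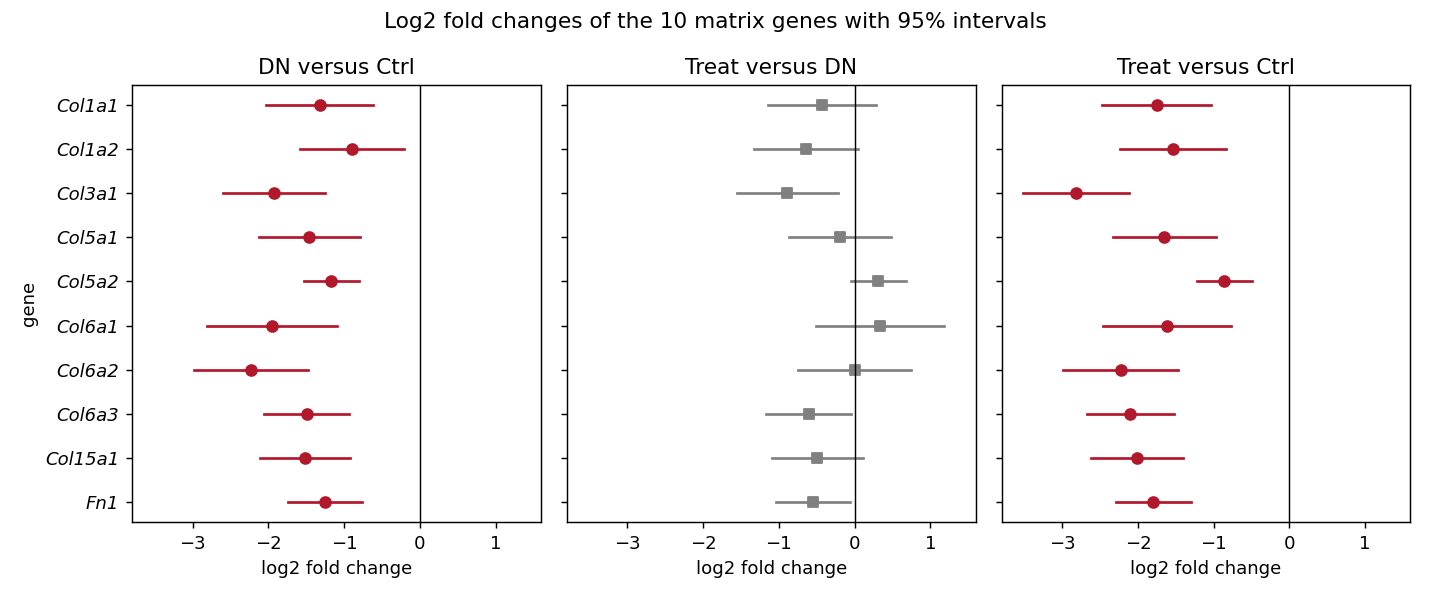
Log2 fold changes (horizontal axis) of the 10 genes (vertical axis) in the 3 comparisons, with 95% intervals as lines; red circles passed an adjusted p of 0.05 and grey squares did not. All intervals lie below 0 against the controls, and 7 of 10 include 0 between treated and untreated DN.

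The comparison of treated with untreated DN animals asks whether TSK changed the level of these messages. None of the 10 genes was called in either direction by edgeR, while 0.536% of all tested genes were called higher and 0.858% lower. Over all genes this made 103 higher and 165 lower, and with library totals as the scaling the balance turned to 654 higher and 121 lower, with none of the 10 genes called. DESeq2 called none of the 10 as well, and limma voom with library quality weights called Col1a2 lower. At an unadjusted p under 0.05 in edgeR, 3 of the 10 genes (Col3a1, Col6a3 and Fn1) were lower in Treat. The share of all tested genes at that level is not given here, so nothing is read from this count. The median log2 fold change of the 10 genes was -0.46, against -0.01 over all tested genes, and 7 of the 10 were below 0. Without DN library 6, the highest DN library for 9 of the 10 genes, the median was -0.22. No gene had separate ranges in the 2 groups, and the share of all tested genes with separate ranges is not given here.

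The largest difference was that of Col3a1, with a log2 fold change of -0.89 (95% interval -1.56 to -0.22; adjusted p = 0.173). Col1a2 followed with -0.64 (-1.33 to 0.05; adjusted p = 0.346). Treated library 1 held 50.5 CPM of Col1a2 and the next treated library 27.0 CPM, and leaving library 1 out gave Col1a2 a log2 fold change of -1.05 (adjusted p = 0.0513). With control library 4 left out as well, it was -1.03 and Col1a2 was called (adjusted p = 0.0216). That setting was chosen after seeing the data, and control library 4 is not part of this comparison, so nothing is read from the call. Col6a3 stood at 3.45 to 8.51 CPM in Treat (median 4.98), with a log2 fold change of -0.61 (-1.17 to -0.04; adjusted p = 0.270). Fn1 stood at 12.4 to 18.4 CPM in Treat (median 14.4), with a log2 fold change of -0.54 (-1.04 to -0.05; adjusted p = 0.252).

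The remaining genes lay closer to their DN level. Col15a1 ranged from 2.89 to 6.27 CPM in Treat (median 4.99; log2 fold change -0.49, 95% interval -1.09 to 0.11). Col1a1 had a log2 fold change of -0.43 (-1.14 to 0.28), and Col5a1 one of -0.19 (-0.86 to 0.48). Estimates above 0 were found for Col5a2 (0.31, interval -0.05 to 0.67) and Col6a1 (0.34, interval -0.51 to 1.18). Col6a2 stood level with DN (0.00, interval -0.74 to 0.75). Col6a1 spread widely in the treated animals, from 2.14 CPM in library 4 and 3.06 CPM in library 6 to 14.9 and 15.4 CPM in libraries 5 and 3. Col6a2 ranged from 1.36 to 6.39 CPM there (median 3.48). The coefficient of variation of Col6a1 was 67.0% in Treat, 43.8% in DN and 30.3% in Ctrl.

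The comparison of treated with control animals asks what still set the treated kidneys apart. All 10 genes were called lower in Treat, against 21.9% of all tested genes, and 9 of the 10 had separate ranges, against 13.2%. Over all genes 4214 of 8629 calls were lower, and 3127 of 8797 with library totals, under which all 10 genes were called lower as well. The gene without separate ranges was Col1a2, for which treated library 1 reached into the control range. The median log2 fold change was -1.77, against 0.02 over all tested genes. It ranged from -2.82 for Col3a1 (SE 0.33, adjusted p = 4.25e-06), a 7.04-fold lower level, to -0.86 for Col5a2 (SE 0.17, adjusted p = 0.000633). Next to Col3a1 came Col6a2 (-2.23), Col6a3 (-2.10) and Col15a1 (-2.01), followed by Fn1 (-1.80), Col1a1 (-1.75), Col5a1 (-1.65), Col6a1 (-1.62) and Col1a2 (-1.54). This comparison shares the control libraries with that of DN and Ctrl.

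Control library 4 stood apart from the other controls. The unnamed identifier ENSMUSG00000086503 had 38313 to 52784 counts in the other 5 controls, 23 counts in control library 4, and 12 to 41 counts in every DN and treated library. The files do not pair this identifier with a name. Whether the controls differ from one another in sex or carry other tissue was not tested. For those 5 controls the division and the condition cannot be told apart, which touches every value set against Ctrl, and its part in these values was not tested. Control library 4 held higher levels of all 10 genes than every DN and treated library, and it was the highest control for 7 of them. When the fit included this division as a term, control library 4 alone served as reference, and the spread came from the other libraries, with this library assumed to vary like them. In that fit 9 of the 10 genes were called lower in DN (2.78% of all tested genes were) and 9 in Treat (5.78%). The median log2 fold change of the 10 genes in DN was then -1.97, a value set by a reference library in which most of these genes were high. Col5a2 was the gene not called (DN, -0.92, adjusted p = 0.0809; Treat, -0.60, adjusted p = 0.209). With control library 4 left out instead, 9 of the 10 genes were called lower in DN (14.3% of all tested genes) and all 10 in Treat (21.2%), and Col1a2 was the gene not called in DN (-0.65, adjusted p = 0.121).

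The balance between chains was followed through ratios of their counts within each library, which do not depend on library scaling. A ratio carries the transcript lengths of both genes, so only its change between groups is informative. The 6 pairs were compared over the 3 group comparisons with two-sided exact permutation tests over 924 splits. This gave 18 tests, with a smallest possible p of 0.00216. The ratios were chosen after the values had been seen, so their p-values describe these data and are no independent test. The ratio of Col3a1 to Col1a1, the 2 main fibre-forming genes, had a log2 value of 1.43 to 1.84 in the controls (mean 1.68 ± 0.15, SD, n = 6). In DN it was 0.71 to 1.19 (0.99 ± 0.17), and in Treat 0.31 to 0.76 (0.58 ± 0.17). The lowest control was control library 4, which was still above the highest DN library.

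The Col3a1 to Col1a1 log2 ratio differed by -0.69 between DN and Ctrl and by -1.10 between Treat and Ctrl (each exact permutation p = 0.00216, adjusted p = 0.0195). In each of these comparisons 6 of 6 libraries lay below all 6 controls. Between Treat and DN the difference was -0.41 (exact permutation p = 0.00649, adjusted p = 0.0390), with overlapping ranges. The last difference missed the adjusted threshold when DN library 2, 3 or 6 or treated library 3, 4 or 5 was left out (exact permutation tests, adjusted p of up to 0.0649; differences of -0.47 to -0.36 over all alternatives). Col3a1 message thus fell by more than Col1a1 message in DN, while the 2 genes varied together within groups (Pearson r = 0.96 over 18 libraries with group means removed).

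**Figure D3:**
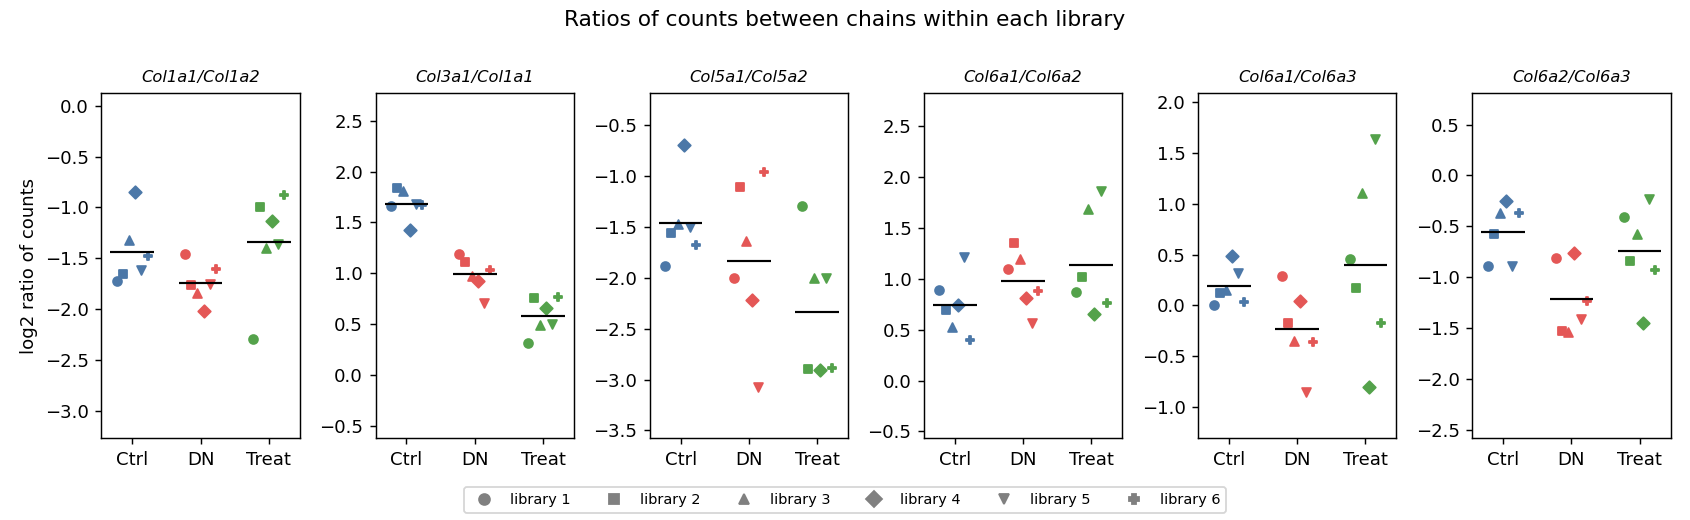
Log2 ratios of counts (vertical axes, each spanning the same range) of 6 gene pairs in each library by group; points are libraries, marker shapes give library numbers and bars are group means. The ratio of Col3a1 to Col1a1 steps down from 1.68 in Ctrl to 0.99 in DN and 0.58 in Treat, while the other 5 ratios overlap between groups.

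None of the other 5 ratios passed the adjusted threshold in any comparison. The nearest was that of Col6a2 to Col6a3, with a mean log2 value of -0.56 ± 0.28 in the controls, -1.22 ± 0.35 in the DN animals and -0.74 ± 0.44 in the treated ones (SD, n = 6 each). Its difference between DN and Ctrl was -0.66 (exact permutation p = 0.0130, adjusted p = 0.0584), and it passed when DN library 1 or 4 or treated library 1 was left out (adjusted p down to 0.0390). Treated library 1 is not part of this comparison, so leaving it out changed only the adjustment over the 18 tests. The ratio of Col1a1 to Col1a2 averaged -1.44 ± 0.32 in the controls, -1.74 ± 0.19 in the DN animals and -1.34 ± 0.51 in the treated ones. Treated library 1 was the lowest of all libraries at -2.29, and without it the Treat minus DN difference was 0.59 (exact permutation test, adjusted p = 0.0195), against 0.40 with it (adjusted p = 0.199). The ratio of Col5a1 to Col5a2 had means of -1.46 ± 0.41 in the control libraries, -1.83 ± 0.78 in the DN libraries and -2.33 ± 0.67 in the treated libraries. Its difference between Treat and Ctrl of -0.87 had an adjusted p of 0.0974, and passed without treated library 1 (-1.08, adjusted p = 0.0130, exact permutation tests). The ratio of Col6a1 to Col6a3 differed by -0.42 between DN and Ctrl (exact permutation test, adjusted p = 0.0974) and passed without DN library 1 (-0.52, adjusted p = 0.0390).

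Within groups, 9 of the 10 genes varied together from animal to animal, and Col5a2 did not. After group means of log2 CPM were removed, the correlation of each gene with the mean of the other 9 over the 18 libraries was 0.83 to 0.92 for 8 genes, 0.57 for Fn1 and 0.09 for Col5a2 (Pearson r, as a description). The rank correlations were 0.81 to 0.92, 0.48 and 0.13. Leaving out the 2 libraries farthest from the median (DN 6 with treated 4, or DN 6 with control 4) gave 0.77 to 0.89 for the 8 genes, 0.46 for Fn1 and 0.16 for Col5a2. Over the 45 pairs the median r was 0.71, from -0.42 for Col5a2 with Fn1 to 0.96 for Col1a1 with Col3a1. All points share their library's depth and scaling.

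**Figure D4:**
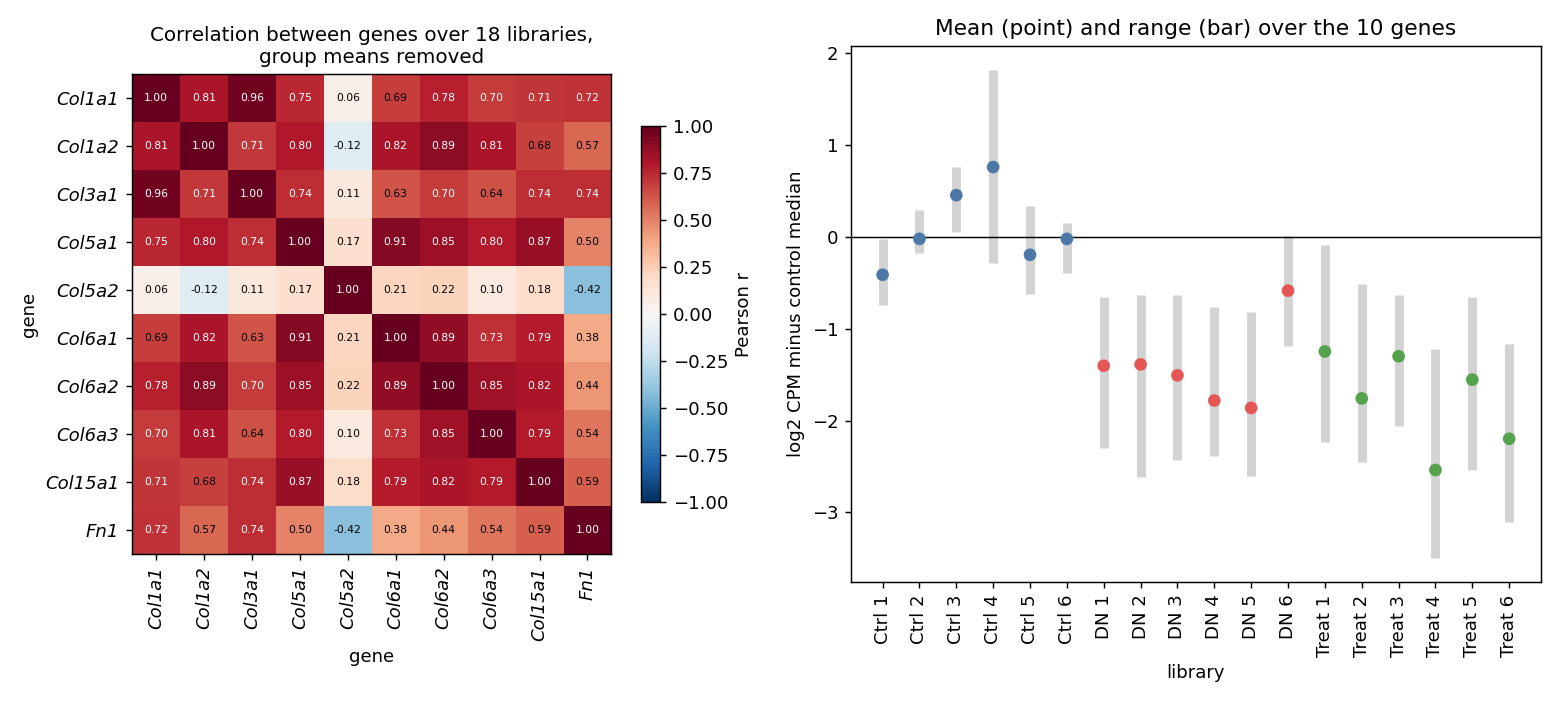
Left, Pearson correlations between the 10 genes over 18 libraries after removal of group means (colour scale from -1 to 1); right, for each library the mean (point) and range (grey bar) over the 10 genes of log2 CPM minus the control median of each gene. Col5a2 forms the pale row and column, and the library means run from 0.76 in control library 4 to -2.54 in treated library 4.

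The shared variation showed as whole libraries standing high or low. Relative to the control median of each gene, the mean over the 10 genes (log2) was -0.41 to 0.76 in the controls, -1.86 to -0.59 in DN and -2.54 to -1.25 in Treat, so that no DN or treated library reached the lowest control. Control library 4 was the highest control for 7 genes, and control library 1 the lowest for 9. DN library 6 was the highest DN library for 9 genes and DN library 5 the lowest for 7, with Col5a2 as the gene for which library 5 was instead the highest. Treated library 4 was the lowest treated library for 7 genes.

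The genes outside the 10 whose within-group variation was most like theirs were taken from 9798 genes with a mean of at least 10 CPM. The 8 most alike had Pearson r of 0.88 to 0.92 over 18 libraries with the mean of the 10 genes. The files do not pair their identifiers with names. The 2 most alike were ENSMUSG00000057335 (r = 0.92) and ENSMUSG00000035493 (r = 0.89), and neither was called between DN and Ctrl, with log2 fold changes of -0.12 (adjusted p = 0.531) and 0.61 (adjusted p = 0.0520). Of the 8, 4 were called lower in DN and 0 higher (edgeR), where 15.3% of all tested genes were called lower. These few genes were chosen for their likeness, and nothing is read from that count.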

How the data were processed

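The authors deposited raw counts per gene identifier, 1 column per library, with no normalization. Builds GRCm38 and mm10 are given per the submitters' processing notes; no aligner, counter or strand setting is stated in the sources used here. Per the labels' protocols, polyadenylated RNA was made into libraries with a SMARTER mRNA kit. Library totals were 22040987 to 35275498 counts, and the 10 genes had 38 to 4766 counts per library. In R 4.3.3, edgeR 4.0.16 (filterByExpr, TMM, glmQLFit, glmQLFTest) was fitted to all 18 libraries with 1 coefficient per group and checked on simulated counts. Log2 CPM used a prior count of 2 and ratios a pseudocount of 0.5. DESeq2 1.42.0 and limma 3.58.1 were among 29 alternative settings. The 10 genes, the gene lists and the tests were chosen with earlier results of these data known, and the ratios after the values had been seen. Beyond the 10 genes, the rule for named genes took up to 4 members per list and the 8 genes most alike in within-group variation. None of the 207 symbols in 16 lists of matrix, signalling and cell type genes (kidney, liver, fat and sex-linked markers included) could be paired with an identifier (0 of 55335 matched the rat gene table), so these lists and the tissue label were not analysed here. Groups are labelled as separate animals; animals of one group may share a cage or batch that the labels do not give.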

Additional observations from a re-analysis of the deposited data

Results flagged for a closer look

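Of 30 groups of 6 values (10 genes in 3 groups), 6 held a library whose gap to its nearest neighbour took up more of the group's range than Dixon's 95% critical value for 6 values. Chance exceeds that value in about 1 group in 20 when values are normally distributed. The CPM used here were not log-transformed, so the rate may differ. Since the genes share libraries, the 6 are not independent. Control library 4 stood apart for Col1a1 (64.7 CPM, next 29.1 CPM) and Col1a2 (116 CPM, next 72.4 CPM). DN library 6 stood apart for Col1a2 (54.1 CPM, next 34.6 CPM), Col6a1 (12.8 CPM, next 6.83 CPM), Col6a2 (6.96 CPM, next 3.19 CPM) and Col6a3 (16.4 CPM, next 8.50 CPM). No treated library was singled out in this way.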

How the results depend on the processing

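The direction of all 10 genes against Ctrl, in DN and in Treat, was below 0 in each of 29 settings. These settings do not separate the condition from the division between control 4 and the other controls. The fit with that division as a term rests on control 4 alone as reference. In DN versus Ctrl 9 or 10 genes were called (9 to 10 with single libraries left out), and in Treat versus Ctrl 9 or 10. Over all tested genes, 2360 to 3594 were called lower in DN versus Ctrl and 3127 to 4902 in Treat versus Ctrl. These ranges leave aside the fit with the division of the controls as a term. In the main fit the shares were 15.3% and 21.9%. Besides Col1a2 and Col5a2, no gene lost a call against Ctrl in any setting. Between Treat and DN the count of 0 became 1 under limma voom with library quality weights and 1 with control 4 and treated 1 left out together (a setting chosen after seeing the data), Col1a2 both times (log2 fold changes -0.96 and -1.03); it was 0 in the other 27 settings. Without control libraries 4 and 5 Col1a2 was at -0.67 in DN (adjusted p = 0.153). When library totals replaced TMM factors, the median of all genes between Treat and DN moved to 0.13 and that of the 10 genes to -0.33 (between Treat and Ctrl to 0.13 and -1.68), and Col1a2 was not called in DN (adjusted p = 0.0555), nor without the count filter (adjusted p = 0.0782). With the replicate number as a block, 9 genes were called in DN versus Ctrl, 0 in Treat versus DN and 10 in Treat versus Ctrl, Col1a2 being the loss. Of all 19233 tested genes, that fit called 2739 lower in DN versus Ctrl and 4056 lower in Treat versus Ctrl. Libraries with the same number deviated together only weakly or not at all (correlations of deviations -0.22 to 0.23). This check over all genes cannot tell whether animals with the same number shared a cage or batch. The number of all genes called between DN and Ctrl was 6202, and 986 when the fit included the division between control 4 and the other controls, with 1 library as reference; between Treat and Ctrl it was 8629 and 1862. Between Treat and DN it was 268, and it varied widely: 841 with DESeq2, 775 with library totals, 737 with limma voom, 593 with control 4 and treated 1 left out, 119 without the count filter, 117 with the replicate block, 116 with only the libraries compared, and 97 to 446 with single libraries left out. Totals of at least 22040987 counts per library limit only the least counted values, such as the 38 counts of Col6a2 in treated library 4.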
